A study of Rattus norvegicus with 4 samples.

Results

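The miRNAs (microRNAs) of fracture callus, the repair tissue that forms around a broken bone, were compared between day 11 and day 5 of healing in diabetic rats. The 2 arrays were chosen by their titles from the 4 arrays of the series, and all 727 rat miRNA probes on them were used. Both arrays came from 12-week-old male Sprague-Dawley rats made diabetic with a single intravenous injection of streptozotocin at 40 mg/kg, which destroys pancreatic beta cells, and their blood glucose was over 300 mg/dl. The other 2 arrays, used only beside them, came from control rats of the same age, sex and strain that received a sham injection of sodium chloride, with normal blood glucose, on days 11 and 5. All rats had a closed transverse fracture of the femoral shaft with a K-wire in the marrow canal. For each group and day, tissue of 5 animals went into 1 pool, so each group had 1 array and no replicate, no difference between arrays could be tested and no p-value is given. In pooled tissue, fewer cells of a type and less miRNA per cell cannot be told apart.

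A miRNA is a short RNA cut from one strand, or arm (5p or 3p), of a folded hairpin, and it lowers the output of messenger RNAs that pair with its seed, the bases near its 5′ end. Some miRNAs are made mainly in a single lineage, so their levels in a tissue depend in part on its cells. A callus at first holds clotted blood, inflammatory cells and damaged muscle, and later fills with cartilage that is then replaced by bone.

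The mature sequences of the miRNAs on which the results turn are given 5′ to 3′ as RNA from RefSeq on the rat build GRCr8, which held a sequence for 653 of the 727 probes, with the seed (bases 2 to 8) in capitals. The arms of miR-140, the cartilage miRNA that was higher on day 11, come from 1 hairpin on chromosome 19, at chr19:52375314-52375335 and chr19:52375353-52375373 on the plus strand, and have different seeds.
miR-140-5p: cAGUGGUUuuacccuaugguag
miR-140-3p: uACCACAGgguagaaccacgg
The 4 brightest skeletal muscle miRNAs, which were lower on day 11, form pairs with a shared seed. miR-1-3p and miR-206-3p share one, and miR-133a-3p and miR-133b-3p share another and differ by the single base change G22A, counted from the 5′ end of miR-133a-3p, so that a probe for one can bind the other.
miR-1-3p: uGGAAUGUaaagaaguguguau
miR-206-3p: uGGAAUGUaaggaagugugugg
miR-133a-3p: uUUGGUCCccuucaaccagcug
miR-133b-3p: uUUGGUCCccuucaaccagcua
The leukocyte miRNAs that were lower on day 11 have unlike seeds.
miR-223-3p: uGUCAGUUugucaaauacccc
miR-142-5p: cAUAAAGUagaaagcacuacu
miR-142-3p: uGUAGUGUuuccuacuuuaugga
Of the remaining 4, miR-210-3p and miR-208a-5p were higher and miR-532-5p was lower on day 11, and miR-3546 is read from the strand opposite to miR-208a-5p on chromosome 15.
miR-210-3p: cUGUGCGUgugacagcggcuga
miR-208a-5p: gAGCUUUUggcccggguuauac
miR-3546: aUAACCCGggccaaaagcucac
miR-532-5p: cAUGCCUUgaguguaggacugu

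Levels are blank-corrected intensities: the spot minus the blank mean of its array, scaled so that the 400 miRNAs detected on all 4 arrays had a median of 100. A miRNA was detected where its spot exceeded the blank mean by 2 SD of the blanks, which is a level of 11.9 on day 11 and 11.2 on day 5. The day 11 array was the dimmer one before scaling, with a mean intensity of spike control 1 of 14455 against 31799 on day 5 and a blank mean of 73.4 against 117. It detected 482 miRNAs (66.3%), against 560 (77.0%) on day 5. Of the spots without a probe, 17.9% and 20.4% also exceeded the limit, so detection near it says little. The labelled tissue showed bright markers, with cartilage miR-140-3p at 3187 on day 11 and 1454 on day 5 and mesenchymal miR-199a-3p among the brightest. All 6 cartilage miRNAs were detected on both days, but miR-675-3p on day 11 lay under the highest negative control spot. The tissue also held bright skeletal muscle miRNAs. Differences are log2 values of day 11 minus day 5, given with a technical error from spike and blank spots, which does not cover animals, pools or hybridisations.

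Of the 727 miRNAs, 444 were detected on both diabetic arrays, 38 on day 11 only, 116 on day 5 only and 129 on neither. Among the 444, the median difference was 0.0065, a value that depends on the scaling, and 279 lay within 0.5 of 0. On this scale most miRNAs thus had similar levels on both days. At least 2-fold higher on day 11 were 17 miRNAs (3.83%) and at least 2-fold lower were 36 (8.11%), with differences between -2.09 and 2.01. Of these, 6 of the 17 and 21 of the 36 had a level under 100 on both arrays, where the median technical error was 0.37. Among the 216 miRNAs that reached a level of 100 on either array, with a median technical error of 0.12, 11 were higher (5.09%) and 15 lower (6.94%). Higher miRNAs made up 32.1% of the 53 calls. This share was 55.4% when arrays were scaled on miRNAs detected on both diabetic arrays, 50.9% on the spike controls and 44.2% after quantile normalisation. These scalings shifted the median over all 444 miRNAs to 0.17, 0.13 and 0.033, so differences are best read relative to the other miRNAs on the same arrays.

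**Figure D1:**
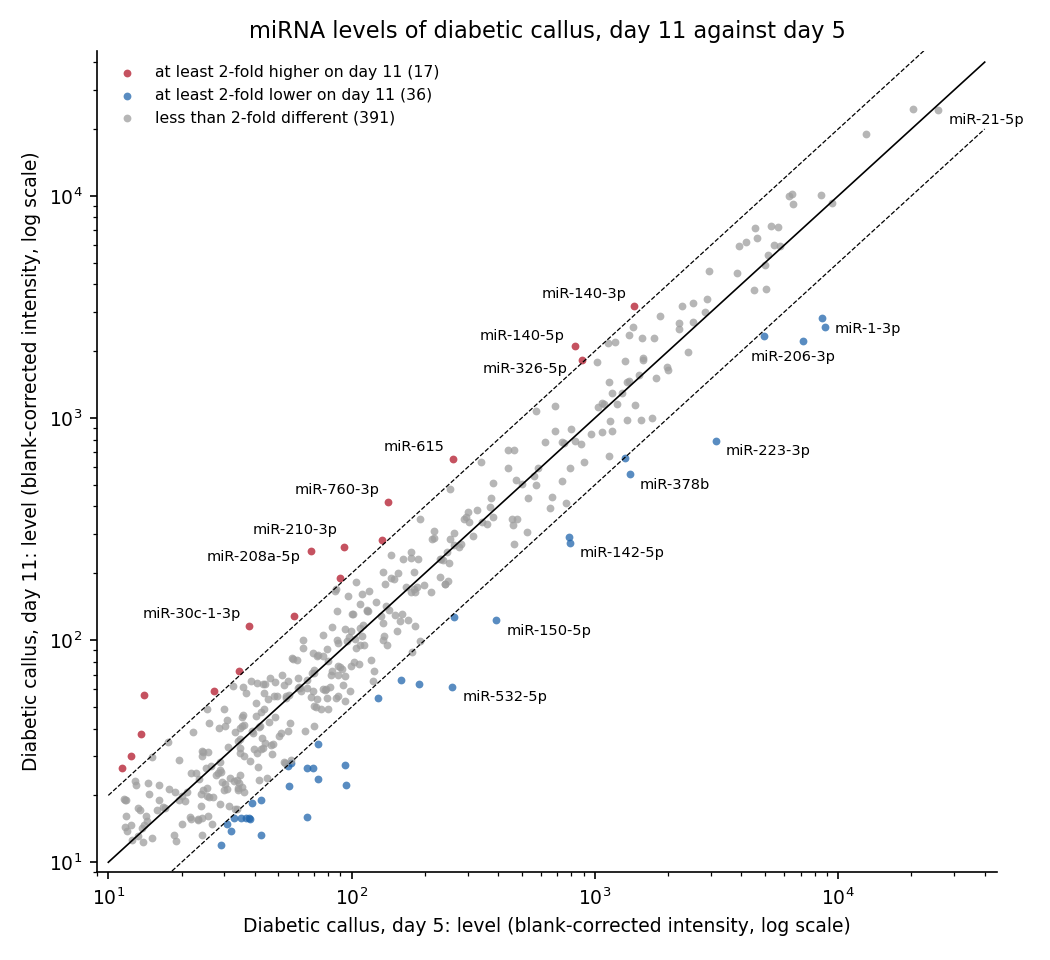
Level of each of the 444 miRNAs detected on both arrays in diabetic callus on day 11 (vertical axis) against day 5 (horizontal axis), both as blank-corrected intensity on a log scale. The solid line marks equal levels and the dashed lines 2-fold differences; the 17 red points lie at or above the upper dashed line and the 36 blue points at or below the lower one, with miR-532-5p and leukocyte miR-223-3p farthest below among the miRNAs that reached a level of 100.

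Both arms of miR-140 were higher on day 11 in diabetic callus. The other cartilage miRNAs differed by less than 2-fold, apart from the dim miR-675-3p, which was lower. miR-140, which lies in an intron of Wwp2 and is abundant in chondrocytes, is needed in mice for normal growth of cartilage bones. miR-140-5p was at 2111 on day 11 and 829 on day 5, which is 2.55-fold higher (log2 1.35 ± 0.12 technical error). miR-140-3p was at 3187 on day 11 and 1454 on day 5, 2.19-fold higher (log2 1.13 ± 0.12). These were the brightest of the higher miRNAs. miR-455, whose hairpin lies in the collagen gene Col27a1, is another miRNA of chondrocytes. Its 3p arm was at 235 on day 11 and 175 on day 5 (log2 0.42), and its 5p arm was at 109.8 and 99.3 (log2 0.15), both short of 2-fold. miR-675 is made from the H19 transcript, and its arms differed in sign. miR-675-5p was at 149 on day 11 and 126.1 on day 5 (log2 0.24), and miR-675-3p at 34.2 and 72.7 (log2 -1.09 ± 0.30). The day 11 level of miR-675-3p lay under that array's highest negative control spot (51.3). Its difference was -0.36 with local background subtracted by the normexp method and quantile normalisation. All 6 cartilage miRNAs on the array were detected on both days, with 2 at least 2-fold higher and 1 at least 2-fold lower (3.83% and 8.11% over all 444), and their median was 0.33 against 0.0065 over all 444.

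Most skeletal muscle miRNAs that were detected on both days were lower on day 11. miR-1 and miR-133a are made from shared transcripts in skeletal and heart muscle, and miR-206 and miR-133b from another transcript in skeletal muscle. The level of miR-1-3p was 2564 on day 11 and 8787 on day 5, which is 3.43-fold lower (log2 -1.78 ± 0.12). That of miR-133a-3p was 2216 on day 11 and 7192 on day 5 (log2 -1.70). Its near-identical partner miR-133b-3p, whose probe may share signal with it, was at 2815 and 8607 (log2 -1.61). The myogenic miR-206-3p differed least of these 4 bright miRNAs, at 2338 on day 11 and 4931 on day 5 (log2 -1.08 ± 0.12). All 4 were still among the brighter miRNAs of the callus on day 11. The second arm miR-133a-5p was at 63.8 on day 11 and 189 on day 5 (log2 -1.56), and miR-499-5p, from a slow-muscle myosin gene, at 66.1 and 159 (log2 -1.27). Of 15 muscle miRNAs on the array 9 were detected on both days, 4 on day 5 only and 2 on neither day. Of the 9, 6 were at least 2-fold lower and 1 at least 2-fold higher (8.11% and 3.83% over all 444), and the median was -1.27. The summed level of the 15 was 10417 on day 11 and 30095 on day 5.

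Of the 9 muscle miRNAs detected on both days 2 had a positive difference, miR-208a-5p and, far smaller, miR-133c (log2 0.15). miR-208a-5p, from an intron of the heart myosin gene Myh6, was at 253 on day 11 and 67.8 on day 5 (log2 1.90 ± 0.17). The other arm of its hairpin, miR-208a-3p, was detected on day 5 only, at 13.2. miR-3546, which overlaps miR-208a-5p by 20 bases on the opposite strand (chr15:32395601-32395620), was at 56.8 on day 11 and 14.1 on day 5 (log2 2.01 ± 0.61, but 0.36 with normexp correction). Both miR-133c and miR-3571 lie opposite muscle miRNAs that were lower. miR-133c, opposite miR-133a-3p over 21 bases (chr18:2157886-2157906), was at 84.7 on day 11 and 76.4 on day 5 (log2 0.15), and miR-3571, opposite miR-1-3p over 21 bases (chr18:2160340-2160360), was at 13.1 and 13.2 (log2 -0.0039). The level of miR-3571 on both days and that of miR-3546 on day 5 lay near the median of the negative control spots (12.4 on day 11 and 13.8 on day 5), so they say little about these pairs. Of 13 such pairs with both members detected on both days, 8 had the same sign.

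Leukocyte miRNAs were lower on day 11. miR-223 is abundant in neutrophils and monocytes, miR-142 is made across blood cell lineages and miR-150 in mature lymphocytes. The level of miR-223-3p was 789 on day 11 and 3130.4 on day 5, 3.97-fold lower (log2 -1.99 ± 0.12). That of miR-142-5p was 275 on day 11 and 786 on day 5 (log2 -1.52), and that of miR-142-3p was 292 and 784 (log2 -1.43). The lymphocyte arm miR-150-5p was at 123 on day 11 and 392 on day 5 (log2 -1.67 ± 0.14). Of the leukocyte miRNAs detected on both days, these 4 were the only ones at least 2-fold different, all lower (8.11% over all 444). miR-150-3p (66.0 and 65.7) and both arms of miR-342, a miRNA of blood cells hosted by Evl, differed by less than 0.1 on the log2 scale, and miR-223-5p was detected on day 5 only. Of 8 leukocyte miRNAs 7 were detected on both days, and their median was -1.43.

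Of 13 inflammation-induced miRNAs 8 were detected on both days, with a median of -0.20. None of the 8 reached 2-fold, which says little beside the 11.9% over all 444. Both miR-146 genes, which respond to NF-kB and share a seed, were lower by similar amounts. miR-146a-5p was at 395 on day 11 and 654 on day 5 (log2 -0.73), and miR-146b-5p at 271 and 464 (log2 -0.78). miR-155-5p, which is induced in activated immune cells, was at 79.9 on day 11 and 102 on day 5 (log2 -0.36 ± 0.18). In the other direction, miR-212-3p, which is made together with miR-132 from a CREB-responsive gene, was at 242 and 144.7 (log2 0.74). miR-21-5p, a miRNA of stroma and inflamed tissue, was close to equal on both days, at 24454 on day 11 and 25787 on day 5 (log2 -0.077).

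Markers of other cell types that a callus can hold differed by less than 2-fold where detected on both days, apart from the dim epithelial arms miR-183-3p and miR-203a-3p. Endothelial miR-126a, hosted by Egfl7, was lower in both arms, at 3808 on day 11 and 5036 on day 5 for the 3p arm (log2 -0.40) and 352 and 456 for the 5p arm (log2 -0.37). Erythroid miR-451-5p was at 1458 on day 11 and 1357 on day 5 (log2 0.10) and miR-144-3p at 97.5 and 88.3 (log2 0.14). The smooth muscle miRNA miR-143-3p was at 2712 and 2521, and the median of the 4 smooth muscle and pericyte miRNAs was 0.041, with a negative sign after loess scaling or normexp correction. The widest difference among these vessel and red cell miRNAs was that of miR-143-5p (log2 -0.59). Of 21 epithelial miRNAs 7 were detected on both days. Only miR-375-5p of these was positive (log2 0.28), and it was by far the brightest, at 24585 on day 11 and 20260 on day 5. The defining miR-200c-3p was not detected on day 11 and was at 19.4 on day 5, and miR-205 was at 58.8 and 62.1. The epithelial median of -0.48 turned positive after normexp correction. Of 8 neural miRNAs 4 were detected on both days at levels of at most 81.5, and liver miR-122-5p was detected on day 11 only, at 35.4. Mesenchymal miRNAs of the Dnm3os transcript were bright and slightly higher on day 11. miR-199a-3p was at 19065 and 12998 (log2 0.55), and miR-199a-5p and miR-214-3p differed by 0.50 and 0.44. With normexp correction and quantile normalisation the difference of miR-199a-3p was 0. Quantile normalisation gives equal ranks equal values, so this 0 says only that its rank was the same on both arrays.

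Among the other miRNAs that reached a level of 100 and had the 12 largest positive differences, miR-210-3p has the best known inducer. It is a direct target of hypoxia-inducible factor, and it was at 263 on day 11 and 92.8 on day 5 (log2 1.503 ± 0.15). Its other arm had the opposite sign, with miR-210-5p at 54.8 and 86.1 (log2 -0.65 ± 0.22). miR-615, which lies in the Hoxc cluster, was at 653 on day 11 and 261 on day 5 (log2 1.33). With miR-615 included, 8 of 11 Hox cluster miRNAs were detected on both days and 7 of them were positive, with a median of 0.24. The next largest difference among them was that of miR-196c-5p (log2 0.67). miR-760-3p was at 418 on day 11 and 141.1 on day 5 (log2 1.57) and miR-326-5p, the brightest after miR-140, at 1816 and 888.6 (log2 1.03). miR-30c-1-3p was at 116 and 37.9 (log2 1.61 ± 0.26). The remaining members of the 12 were miR-433-5p (log2 1.14) and miR-666-5p (log2 1.08) of the imprinted Dlk1-Dio3 cluster, miR-181c-5p (log2 1.09) and miR-6318, which fell short of 2-fold (log2 0.98).

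Among the 12 largest negative differences of miRNAs at this level, miR-532-5p had the largest. It lies in an intron of Clcn5 on the X chromosome and was at 61.6 on day 11 and 259.6 on day 5, 4.21-fold lower (log2 -2.07 ± 0.19). The other arm miR-532-3p was at 69.0 and 93.8 (log2 -0.44). None of the other arms of that gene's cluster detected on both days reached 2-fold, which says little beside the 11.9% over all 444. The list named for the cluster had 9 of 12 members detected on both days, 6 of them negative, and a median of -0.38. miR-378a lies in the gene of the mitochondrial regulator PGC-1β and is abundant in oxidative muscle. miR-378a-3p was at 658 on day 11 and 1324 on day 5 (log2 -1.01), just inside the 2-fold limit, and miR-378b was at 560.0 and 1388 (log2 -1.31). With miR-378a-5p (log2 -0.24), the 3 miR-378 probes were all negative. miR-339-5p was at 54.9 and 129 (log2 -1.23 ± 0.21). Nearest to the limit at this level were miR-378a-3p (-1.01) and miR-18a-5p (-0.995) on the lower side, and miR-326-5p (1.03) and miR-6318 (0.98) on the higher side.

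**Figure D2:**
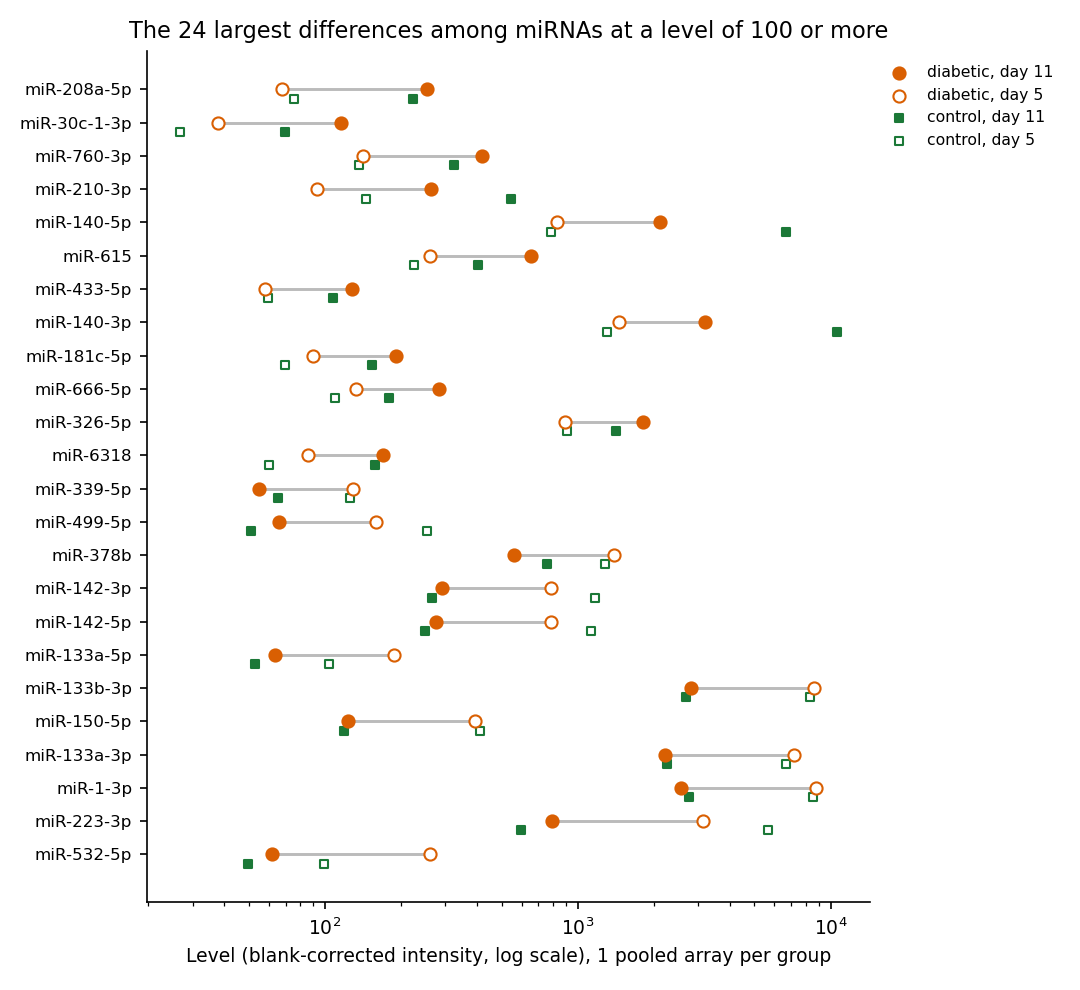
Levels (blank-corrected intensity, log scale) of the miRNAs with the 12 largest positive and 12 largest negative differences in diabetic callus among those that reached a level of 100, with 1 pooled array per group. Filled circles are diabetic callus on day 11, open circles diabetic callus on day 5, and filled and open squares control callus on days 11 and 5; in all 24 miRNAs the control arrays lie in the same direction, with the widest control gaps in miR-140 and miR-223-3p.

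The medians of most other families and clusters lay within 2-fold. The proliferation clusters, which include the miR-17 to miR-92a transcript and its 2 paralogs and are active in dividing cells, were mostly lower on day 11, with 14 of 18 members detected on both days (of 25) negative, 1 at least 2-fold lower (8.11% over all 444) and a median of -0.38. miR-19a-3p was at 127.1 on day 11 and 263 on day 5 (log2 -1.05), miR-18a-5p at 88.8 and 177 (log2 -0.995) and miR-17-5p at 1005 and 1718 (log2 -0.77). The miR-30 family had 8 of 9 detected members negative (median -0.47), miR-30c-1-3p being the exception. The 4 detected members of the miR-29 family, which targets collagen transcripts, were all negative (median -0.48), with miR-29b-3p at 977 and 1355 (log2 -0.47). None of these medians changed sign under any of the 6 other scalings.

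On the positive side, the miR-23/27/24 clusters had 10 of 11 members positive, 0 at 2-fold (11.9% over all 444) and a median of 0.39. Their 5 bright 3p arms lay close together, between 0.62 (miR-27a-3p, 5975 on day 11 and 3897 on day 5) and 0.68 (miR-23b-3p, 10024 and 6252). The let-7 and miR-98 family, which is high in differentiated cells, had 13 of 14 detected members positive (median 0.23), with let-7b-5p at 6206 and 4159. The miR-15/16 family, which targets cell cycle genes, had 8 of 10 positive (median 0.32), led among the bright members by miR-322-3p (log2 0.89) and miR-497-5p (log2 0.81). In the miR-181 family the 4 5p arms, which share a seed, were all higher, with miR-181c-5p at 191 and 89.7 (log2 1.09), miR-181a-5p at 2186 and 1128 (log2 0.95) and the other two at 0.70 and 0.43. Of its 9 detected members 6 were positive and 3 negative, the lowest being the dim miR-181d-3p (log2 -0.94), and the median was 0.43. These medians, too, kept their sign under all 6 other scalings. Of 6 detected miRNAs linked to osteoblast differentiation 4 were positive, among them miR-335 at 716 on day 11 and 464 on day 5 (log2 0.63), with a median of 0.40 that was 0.028 with normexp correction and -0.29 without the detection limit.

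The list named for the imprinted Dlk1-Dio3 cluster, which is expressed from the maternal chromosome, was split evenly. Members were listed by name, and the place of miR-881 in this cluster was not checked. Of the list's 95 arms on the array 64 were detected on both days, 32 positive and 32 negative. At least 2-fold higher were 2 and at least 2-fold lower 6, close to the 3.83% and 8.11% over all 444. The median was 0.0029 and turned negative after normexp correction and in the deposited values. The 2 that were higher, miR-433-5p and miR-666-5p, reached a level of 100, and none of the 6 that were lower did. The miR-34 family (median -0.33), the miR-99/100 and miR-125 families (0.050), miR-26 (-0.021), the pair miR-221 and miR-222 (-0.047) and the neural list (-0.19) changed sign with the scaling.

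**Figure D3:**
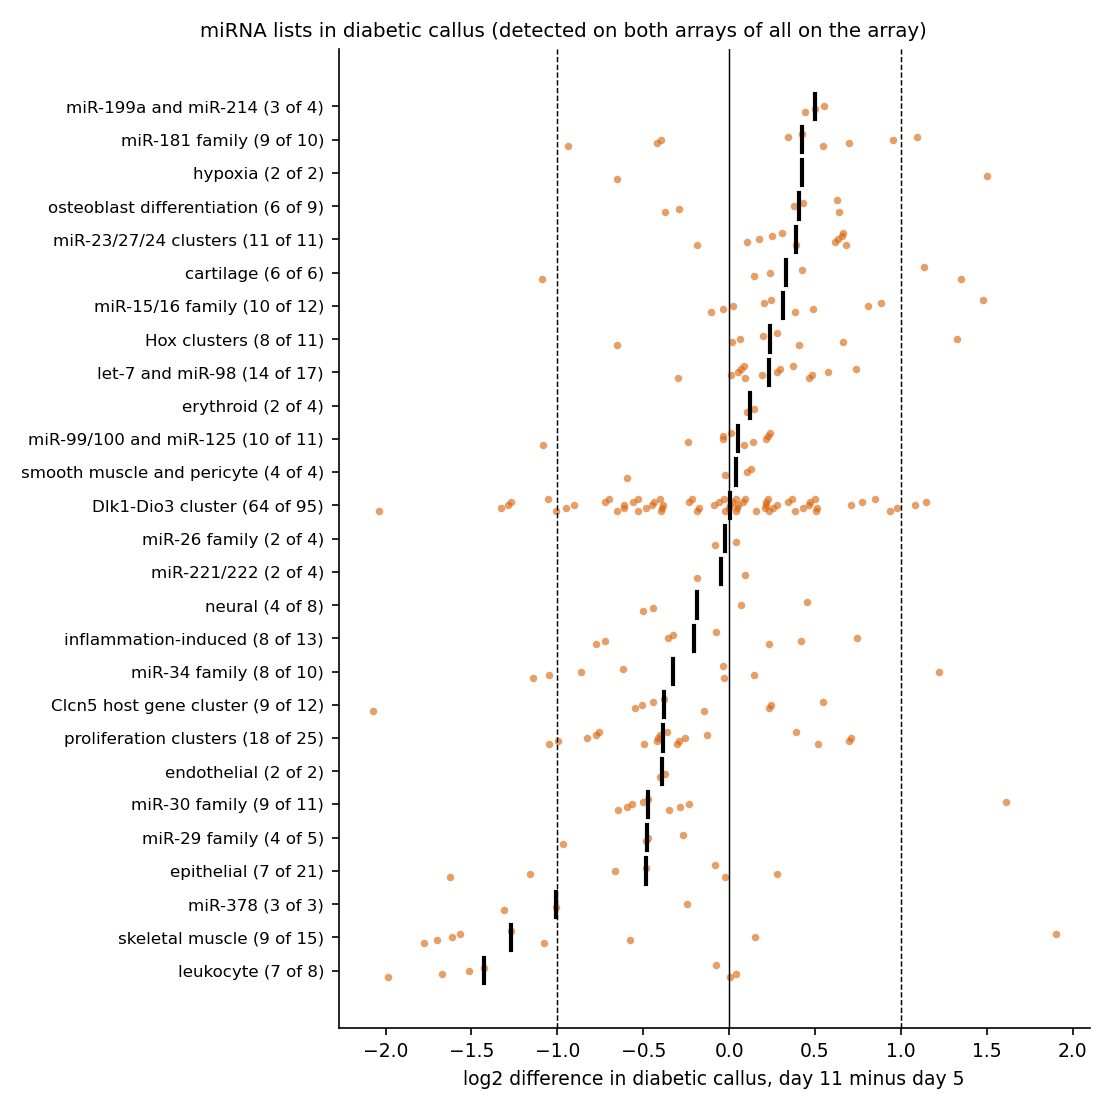
log2 difference (day 11 minus day 5, horizontal axis) in diabetic callus of each listed miRNA detected on both arrays, with 1 line per list and, in brackets, how many of the list's miRNAs on the array were detected. Points are miRNAs, black bars are list medians and dashed lines mark 2-fold; the leukocyte and skeletal muscle medians lie at -1.43 and -1.27, while the medians of the miR-23/27/24, let-7 and miR-15/16 families lie between 0.23 and 0.39.

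The same days were then set side by side in control callus, which shares no array with the diabetic pair. Over the 216 miRNAs that reached a level of 100 in diabetic callus, the diabetic and control differences had a Pearson correlation of 0.786 (Spearman 0.777) and the same sign in 175 (81.0%), as a description across miRNAs, which are not replicates and share the scaling. Of the 26 calls at this level, 0 had the opposite sign in control callus. Over the 400 miRNAs detected on all arrays the correlation was 0.544. Among these 400, 16 were at least 2-fold higher and 33 at least 2-fold lower in diabetic callus. Of these calls 11 had the opposite sign in control callus, and 0 were 2-fold in opposite directions. In control callus 31 of 446 miRNAs were at least 2-fold higher (6.95%) and 31 at least 2-fold lower (6.95%). With 1 array a group, the difference between the time courses could not be tested.

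Of the 6 cartilage miRNAs, 5 had smaller differences in diabetic than in control callus, the exception being the dim miR-675-3p (-1.09 in diabetic and 0.16 in control callus). miR-140-5p differed by 1.35 in diabetic and 3.09 in control callus, where it was at 6675 on day 11 and 785 on day 5. On day 5 its diabetic level of 829 was close to the control level, so the gap lay on day 11. miR-455-3p differed by 0.42 in diabetic and 2.15 in control callus (601 and 135). The cartilage medians were 0.33 and 2.08. Erythroid miR-451-5p differed by 0.10 in diabetic and 1.62 in control callus, where it was at 1495 on day 11 and 485.8 on day 5, and the gap between the groups lay on day 5, at 1357 in diabetic callus. Leukocyte miR-223-3p differed by -1.99 in diabetic and -3.25 in control callus (598 and 5675), and miR-142-5p by -1.52 and -2.19. The differences of leukocyte miR-150-5p were closer, at -1.67 in diabetic and -1.79 in control callus. Of the bright muscle miRNAs, miR-1-3p differed by -1.78 in diabetic and -1.62 in control callus, and miR-133b-3p by -1.61 and -1.63. For miR-133a-3p the differences were -1.70 and -1.57. Those of miR-206-3p lay further apart, at -1.08 in diabetic and -1.47 in control callus. miR-532-5p had the larger difference in diabetic callus, at -2.07 against -0.999. Its levels were alike on day 11 (61.6 in diabetic and 49.6 in control callus) and apart on day 5 (259.6 and 99.2). Both arms of miR-379 of the Dlk1-Dio3 cluster were positive in diabetic callus (0.50 and 0.46) and negative in control callus (-0.56 and -1.46).

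**Figure D4:**
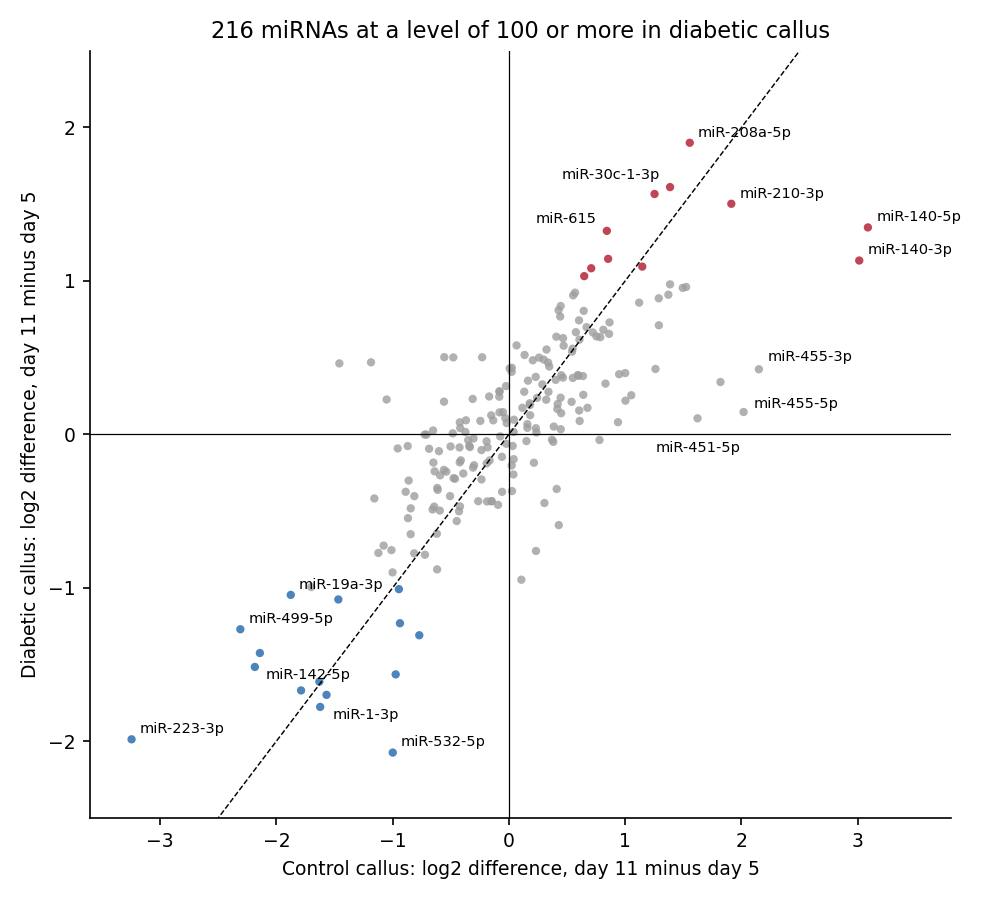
log2 difference (day 11 minus day 5) in diabetic callus (vertical axis) against control callus (horizontal axis) for the 216 miRNAs that reached a level of 100 in diabetic callus. Red points were at least 2-fold higher and blue points at least 2-fold lower in diabetic callus, and the dashed line marks equal differences; the arms of miR-140 and miR-455 lie far to the right of it, with control differences of 2.02 to 3.09.

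The arms of a hairpin are cut from one transcript, so they give separate probes for the same source. Of 110 hairpins with both arms detected on both days, 68 had arms of the same sign (Pearson r = 0.370 across hairpins). miR-140 was the single hairpin with both arms at least 2-fold higher, and miR-142 and miR-133a were those with both arms at least 2-fold lower, while 19 had 1 arm at 2-fold. Among the 27 hairpins whose arms both reached a level of 100, 18 had the same sign, and Pearson r was 0.783 (Spearman 0.578). miR-199a, miR-31a and miR-126a are examples of close arms, with differences of 0.92 and 0.80 for miR-31a. The arms of miR-150 (-1.67 for 5p and 0.0068 for 3p), miR-532 and miR-210 were apart, each with a second arm under a level of 100.

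**Figure D5:**
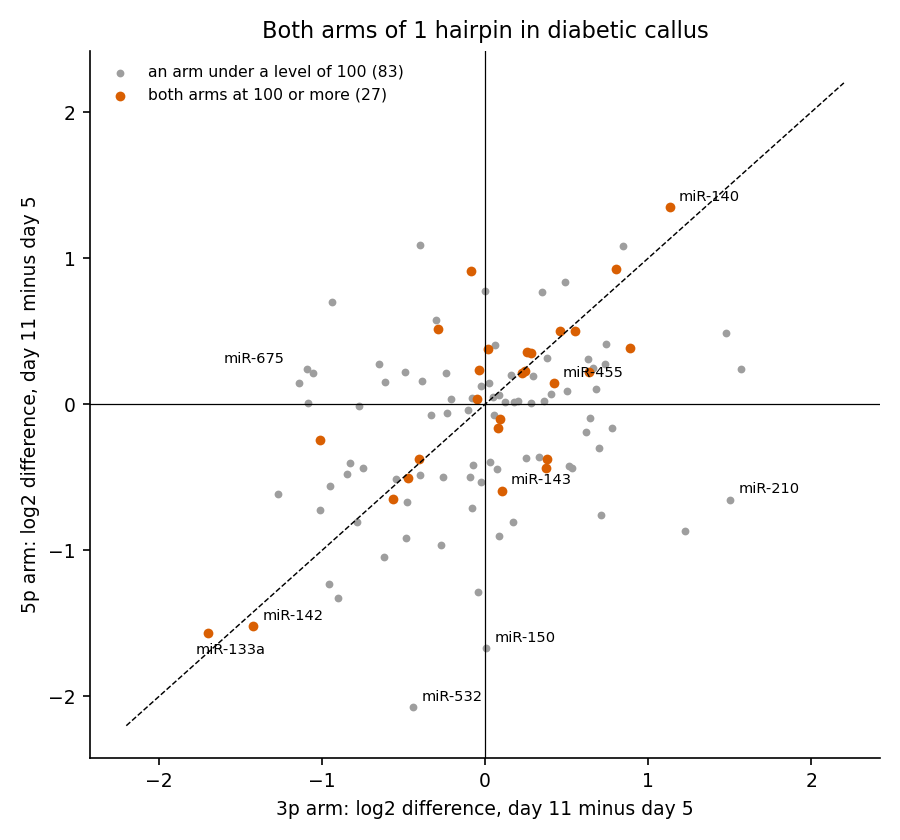
log2 difference (day 11 minus day 5) in diabetic callus of the 5p arm (vertical axis) against the 3p arm (horizontal axis) of each of 110 hairpins with both arms detected on both days. Orange points are the 27 hairpins whose arms both reached a level of 100, and the dashed line marks equal differences; miR-140 stands at the upper right, and miR-142 and miR-133a stand at the lower left.

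Members of one genomic cluster (hairpins on one strand at most 10 kb apart) lay close together in some clusters and far apart in others. The miR-1 and miR-133a cluster (chr18:2157886-2160401, minus strand) had all 3 detected arms at least 2-fold lower, with differences between -1.78 and -1.56. In the miR-17 to miR-92a cluster (chr15:98587861-98588622) 8 of 9 detected arms were negative, and in the miR-199a and miR-214 cluster (chr13:77116255-77121733) all 3 were positive. The miR-532 cluster (chrX:17919195-17930716) had differences between -2.07 and 0.55, and the largest stretch of the Dlk1-Dio3 cluster (chr6:134543460-134579828), with 41 detected arms, between -2.04 and 1.08. By seed, the 5 detected miRNAs with the seed AAAGUGC (miR-17-5p, miR-20a-5p, miR-20b-5p, miR-93-5p and miR-106b-5p) were all negative, with a median of -0.50. The 8 detected let-7 arms with the seed GAGGUAG and the 5 of the miR-15/16 family with the seed AGCAGCA were all positive, with medians of 0.32 and 0.39. Members that share a seed often differ by few bases, and their probes may share signal. In base content, the 11 bright miRNAs that were higher had a median of 36.4% G, against 21.7% in the 13 lower ones with a sequence and 27.3% in all 198 bright miRNAs with one. Across these 198 the correlation of G content with the difference was 0.256.

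By their mean over both days on the log2 scale, the 5 brightest miRNAs of diabetic callus were miR-21-5p, miR-375-5p, miR-199a-3p, miR-347 and miR-16-5p. None of them reached 2-fold, against 11.9% over all 444. miR-375 is known from the pancreatic islet, where the 3p arm is its main product. In diabetic callus, the 5p probe was at 24585 on day 11 and 20260.2 on day 5, against 19553 and 20707 in control callus. The 3p probe was not detected in diabetic callus on either day, at 8.92 and 5.96. miR-16-5p was at 10065 and 8484, and miR-347 at 9261 and 9437. miRNAs detected on 1 day only were mostly near the limit. The 116 of day 5 only had a median level of 17.01 and the 38 of day 11 only of 17.9. Of them, only miR-185-3p on day 5 (46.7, at least 3.91-fold lower on day 11) and miR-3587 on day 11 (117, at least 10.4-fold higher) exceeded the highest of the array's 24 negative control spots, which were at 51.3 on day 11 and 39.2 on day 5. The next largest bounds higher on day 11 were those of miR-122-5p, miR-181b-2-3p and miR-182, between 2.86-fold and 3.15-fold. Those lower were of miR-202-3p, miR-3566 and miR-219a-2-3p, between 2.68-fold and 2.75-fold. The bound for miR-3587 is set against the lowest detected level of day 5 (11.2), and its difference was 1.49 with normexp correction. It was not detected on either control array, and its place in the genome is opposite miR-29b-3p.

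The local background followed the spots, with a correlation of log2 background with log2 spot of 0.889 on day 11 and 0.758 on day 5. It made up 50% or more of the spot for 109 of 263 strong spots (10 or more blank SDs over the blanks) on day 11 and 27 of 273 on day 5. With local background subtracted by the normexp method and quantile normalisation, 5 of 444 miRNAs were at least 2-fold higher (1.13%) and 11 lower (2.48%), which is 3.6% in all. Under both corrections 4 of 444 were higher (0.901%), namely both arms of miR-140, miR-615 and miR-210-3p. The 10 that were lower under both (2.25%) were miR-1-3p, miR-133a-3p, miR-133a-5p, miR-133b-3p, miR-206-3p, miR-223-3p, both arms of miR-142, miR-150-5p and miR-532-5p. The core of muscle and leukocyte miRNAs on the lower side and of miR-140 on the higher side was thus common to both corrections.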

How the data were processed

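Per the file headers, the deposited scanner files gave the median intensity of each spot and of its local background at 635 nm, with no background subtracted. Per the labels' protocols, RNA was isolated from pooled callus and labelled with Cy5 using the 3D-Gene kit. The deposited value table held a linear intensity per miRNA, found to be blank-subtracted and scaled to a median of 25 over the listed miRNAs of each array. It was used, rescaled, as an alternative.

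From the deposited intensities, the mean of the blank spots (highest and lowest 5% left out) was subtracted, arrays were scaled and log2 differences taken. The choice of probes, limits and scale is given above. Normexp (offset 50) and quantile normalisation used limma 3.58.1 in R 4.3.3, the rest pandas 2.3.3 in Python 3.11.15. The steps were tested on simulated data. With 1 array per group no test was run, and the number of arrays limits the precision. A fold for a miRNA detected on 1 array is a bound against the higher of the other array's lowest detected level and the miRNA's own value there.

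Among miRNAs that reached a level of 100, those with the 12 largest differences each way were named, with the 4 largest bounds each way, the 5 brightest and members of the 28 lists. The comparison, lists and rule were chosen with earlier results of these data known. Opposite-strand partners, miR-31a and the dim miRNAs of the closing observations were named after their values were seen. Another 12 settings were tried, and 1 more after the data had been seen. Sequences and coordinates are from RefSeq (GRCr8). Probes were matched by miRNA name.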

Additional observations from a re-analysis of the deposited data

How the results depend on the processing

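The count of miRNAs at least 2-fold higher on day 11, 17 as reported, was 5 with normexp on the local background and quantile normalisation, 7 at a detection limit of 10 blank SDs, 51 without a detection filter, 31 with scaling on miRNAs detected on both diabetic arrays, 28 with scaling on the spike controls, 6 with 50 added before log2 and 10 among miRNAs above the highest negative control spot, an alternative chosen after seeing the data. The count of those lower, 36 as reported, was 11, 18 and 130 under the first 3 of these, 12 with 50 added, 57 with bounds included and 15 above the negative controls. Adding 50 and normexp, whose offset is also 50, compress differences of dim miRNAs by construction, and stricter limits test fewer miRNAs. The medians of the cartilage, skeletal muscle, leukocyte, proliferation and miR-181 lists kept their signs under all 13 settings. The cartilage median moved to 0.50 with scaling on miRNAs detected on both diabetic arrays. The skeletal muscle median of -1.27 moved to -1.08 (normexp), -1.46 (mean over all blanks), -1.46 and -1.54 (limits of 3 and 10 SDs), -1.08 (no filter), -1.06 (50 added) and -0.74 (bounds included). The leukocyte median of -1.43 moved to -1.07 (normexp), -1.59 (10 SDs), -1.26 (scaling on both-day miRNAs) and -0.83 (bounds included). The proliferation median of -0.38 moved to -0.099 (normexp), -0.53 (10 SDs) and -0.22 (scaling on both-day miRNAs), and the miR-181 median of 0.43 to 0.089 (normexp), 0.59 (scaling on both-day miRNAs) and 0.62 (above the negative controls). Causes other than those named were not tested. The other 73 values of these counts and medians under the alternatives moved by less than 1.5 times or the technical error. The miRNAs with the 12 largest differences each way and the 5 brightest made up 29, of which 23 were at 2-fold. Of these 23, 13 stayed at 2-fold in the same direction with normexp, 16 with 50 added and 18 of 21 at 10 SDs. Under the other scalings and filters 21 to 23 stayed, with 22 of 22 above the negative controls. Other list members at 2-fold, most of them dim, were not part of this count. Among these 29 miRNAs, signs were lost or reversed only in the brightest 5. Some dim list members outside the 29 reversed sign with normexp, among them miR-34b-5p and miR-154-3p. No paired analysis was possible because each group had 1 array. Precision is limited by that number and, below a level of about 50, by empty and negative control spots as bright as the miRNAs.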

Other observations

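A group of miRNAs at least 2-fold lower on day 11 in diabetic callus had levels under 100 and did not differ this way in control callus. miR-598-5p had the largest negative difference of the 444, at 22.3 on day 11 and 95.2 on day 5 in diabetic callus (log2 -2.09 ± 0.41 technical error), against 28.3 and 23.03 in control callus. miR-758-5p of the Dlk1-Dio3 cluster was at 15.97 and 65.5 (log2 -2.04 ± 0.56) in diabetic callus, against 58.4 and 55.7 in control callus. miR-183-3p was at 23.7 and 73.0 (log2 -1.62), against 67.9 and 42.2. With normexp correction all 3 fell short of 2-fold. By contrast, miR-7a-5p, a miRNA of neuroendocrine cells, was lower on day 11 in both groups, at 27.3 and 93.6 in diabetic callus and 23.4 and 88.1 in control callus, but its difference was 0.017 with normexp correction.

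Among dim miRNAs that were higher on day 11, miR-195-3p, from the hairpin whose 5p arm belongs to the miR-15/16 family, was at 37.7 and 13.6 in diabetic callus (log2 1.47 ± 0.65), and miR-129-2-3p was at 30.1 and 12.4 (log2 1.28 ± 0.72), against 38.05 and 11.7 in control callus. Their day 5 levels in diabetic callus lay near the median of the negative control spots (13.8), and with normexp correction the differences were 0.31 for miR-195-3p and 0.41 for miR-129-2-3p.

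The brightest unnamed control probe of the array, for which the sources used here give no identity, was at 11353 in diabetic callus on day 11 and 23672 on day 5, against 23296 in control callus on day 11 and 27307 on day 5.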
